A study of Mus musculus with 10 samples.

Results

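Ubiquitin on histone H2A (H2AK119ub) was mapped along mouse chromosome 8, where 651 of the 4922 H2AK119ub peaks called in WT cells and 310 of the 2388 called in Delta cells lay. These peaks were chosen by their position alone, as every peak of the 2 deposited lists on that chromosome, and the lists were kept apart. That a region is a called peak on chromosome 8 was therefore given by the selection and is not a result. Mouse embryonic stem (ES) cells had been grown as aggregates called embryoid bodies (EBs), and at day 4 the mCherry-positive cells were sorted. Both H2AK119ub libraries were labelled as strain C57Bl/6 X Sv129, while the number after Sv in this label was not the same for all libraries of the other marks. WT cells carried *Scl:mCherry*, a reporter on 1 allele of *Scl* in a line derived from J1 ES cells. Delta cells carried *Scl*Δ/Δ:mCherry, made in the *Scl:mCherry* line by deleting the DNA-binding basic helix-loop-helix (bHLH) part of SCL (TAL1), the transcription factor needed to specify blood, from both alleles. Each genotype was thus a clonal line, and *Drosophila* S2 cells had been added to all samples as a spike-in. H3K27me3, H3K27ac and H3K4me3 were mapped in the same cells and serve here as comparison marks. Each mark and genotype had 1 library, so no difference below has a replicate check and no test was made. Intervals are 95% intervals that cover counting error only, and neighbouring peaks are not independent of each other.

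H2AK119ub is placed by Polycomb repressive complex 1 (PRC1), and H3K27me3 by Polycomb repressive complex 2 (PRC2). Both marks are known for lying together over CpG-rich start sites of silent developmental genes, while H3K4me3 marks start sites and H3K27ac marks active promoters and enhancers. Variant PRC1 complexes can also ubiquitylate H2A without H3K27me3. Chromosome 8 carries several developmental loci of this kind, among them the Iroquois genes *Irx3*, *Irx5* and *Irx6*, the forkhead genes *Foxf1a* and *Foxc2*, and *Hand2*. It also carries blood-linked genes, among them *Lyl1*, *Klf1*, *Irf8* and *Cbfa2t3*.

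Of the markers of the sorted cells, 5 of 9 mesoderm, blood and endothelial genes had an H3K27ac peak within 2500 bp of a transcription start site (TSS) in WT, namely *Lmo2*, *Tal1*, *Gata2*, *Lyl1* and *Fli1*, and 0 of 9 did in Delta. Over all 22359 protein-coding genes the shares with H3K27ac there were 19.9% and 22.8%. Of 4 pluripotency genes, 2 had an H3K4me3 peak there in WT and 3 in Delta, without one at *Pou5f1* and *Nanog* in WT and at *Nanog* in Delta. Of all genes, 60.7% had one in WT and 60.3% in Delta. H3K4me3 was also at 6 of 6 cardiac and paraxial mesoderm genes, 2 of 2 neural and 2 of 2 endoderm genes in both genotypes, so it did not set these cell types apart. H3K27ac was at 0 of the 4 pluripotency genes in both genotypes. Of the 6 cardiac and paraxial genes, 0 had H3K27ac in WT and 1, *Gata6*, in Delta. The peak lists do not hold the number of reads per library, and the read totals given by the study were not used here. The lists hold peaks down to a q-value of 0.05. The weakest members on chromosome 8 had a q-value of 0.0469 in WT, at *Nfix*, and 0.0440 in Delta, at *Tubb3*, and regions just outside the limit were not listed.

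4 stretches of sequence show what kinds of site carried the mark. All are on the plus strand of the mm9 build, with CG dinucleotides in capitals, since CpG-rich DNA is where PRC1 is known to gather. The *Tox3* site was the WT peak of highest fold enrichment over the local background among those on H3K27me3, 195 bp long at 4.43-fold, in an intron 1678 bp from a TSS of *Tox3*. The site before *Gm22* was the highest among WT peaks off H3K27me3, 395 bp long at 4.46-fold, outside protein-coding genes and 35248 bp from the nearest TSS. The *Foxc2* site is the middle of the longest Delta peak, 8811 bp long at 4.10-fold, with its middle just outside the gene. The *Irx3* site is the middle of the WT peak nearest the *Irx3* TSS, 2183 bp long at 3.53-fold, in a coding exon.
*Tox3* site, chr8:92870279-92870473: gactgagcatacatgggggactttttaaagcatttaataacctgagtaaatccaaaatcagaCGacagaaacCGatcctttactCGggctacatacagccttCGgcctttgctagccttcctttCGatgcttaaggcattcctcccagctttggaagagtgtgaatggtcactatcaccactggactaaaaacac
Site before *Gm22*, chr8:124757874-124758173: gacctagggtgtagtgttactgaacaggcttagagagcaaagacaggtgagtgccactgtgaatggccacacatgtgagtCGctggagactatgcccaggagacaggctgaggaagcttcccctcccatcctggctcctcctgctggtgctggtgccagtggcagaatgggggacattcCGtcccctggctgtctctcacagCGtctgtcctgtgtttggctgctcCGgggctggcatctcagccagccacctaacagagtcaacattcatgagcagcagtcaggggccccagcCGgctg
*Foxc2* site, chr8:123644403-123644702: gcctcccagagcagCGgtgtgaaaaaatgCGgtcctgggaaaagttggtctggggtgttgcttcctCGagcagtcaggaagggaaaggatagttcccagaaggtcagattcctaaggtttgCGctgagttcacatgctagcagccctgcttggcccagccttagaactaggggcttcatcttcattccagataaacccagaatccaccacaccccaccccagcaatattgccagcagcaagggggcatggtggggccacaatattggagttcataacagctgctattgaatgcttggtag
*Irx3* site, chr8:94323961-94324260: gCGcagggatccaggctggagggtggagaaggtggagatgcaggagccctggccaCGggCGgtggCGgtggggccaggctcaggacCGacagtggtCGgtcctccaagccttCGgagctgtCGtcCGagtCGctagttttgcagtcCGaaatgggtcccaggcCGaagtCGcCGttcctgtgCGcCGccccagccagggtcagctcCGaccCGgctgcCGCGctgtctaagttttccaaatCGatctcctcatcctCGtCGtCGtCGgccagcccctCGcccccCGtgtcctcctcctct
The *Irx3* site held 27 CG dinucleotides in 300 bases, a number reached by 0.265% of the 415980 windows of that length on chromosome 8. The *Foxc2* site held 4 and the site before *Gm22* held 5 in 300 bases, reached by 26.3% and 17.1% of the same windows, whose median was 2. The printed bases are only the middle of the *Foxc2* peak. That whole peak held 39.7 CG dinucleotides per kb, against 9.04 over chromosome 8. The *Tox3* site held 5 in 195 bases, reached by 7.65% of the 639975 windows of its length. Of these 4 sites the *Irx3* site held the most CG dinucleotides, and its peak had the lowest fold enrichment. The folds belong to whole peaks, that of *Foxc2* from the Delta list, while the CG numbers belong to the printed bases.

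Chromosome 8 held more H2AK119ub peaks than any other chromosome in both genotypes, although it makes up 4.88% of the sequenced genome and 4.84% of its protein-coding genes. Its peaks were 13.2% of the WT list and 13.0% of the Delta list. In WT there were 5.22 peaks per Mb, against 2.33 on chromosome 1 and 2.66 on chromosome 15, ratios of 2.24 (1.98 to 2.53) and 1.96 (1.699 to 2.27). In Delta there were 2.48 peaks per Mb, against 1.16 and 1.503, ratios of 2.13 (1.79 to 2.54) and 1.65 (1.36 to 2.02). The other marks had smaller shares there. Chromosome 8 held 7.55% of the H3K27ac peaks in WT and 7.19% in Delta, 6.66% and 6.79% of the H3K27me3 peaks, and 5.52% and 5.49% of the H3K4me3 peaks. Per 100 protein-coding genes, chromosome 8 had 60.2 H2AK119ub peaks in WT and 28.7 in Delta, also the highest of the 19 autosomes in both lists. Chromosome 1 had 36.0 and 18.0 by that measure, and chromosome 15 had 33.5 and 18.9.

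**Figure D1:**
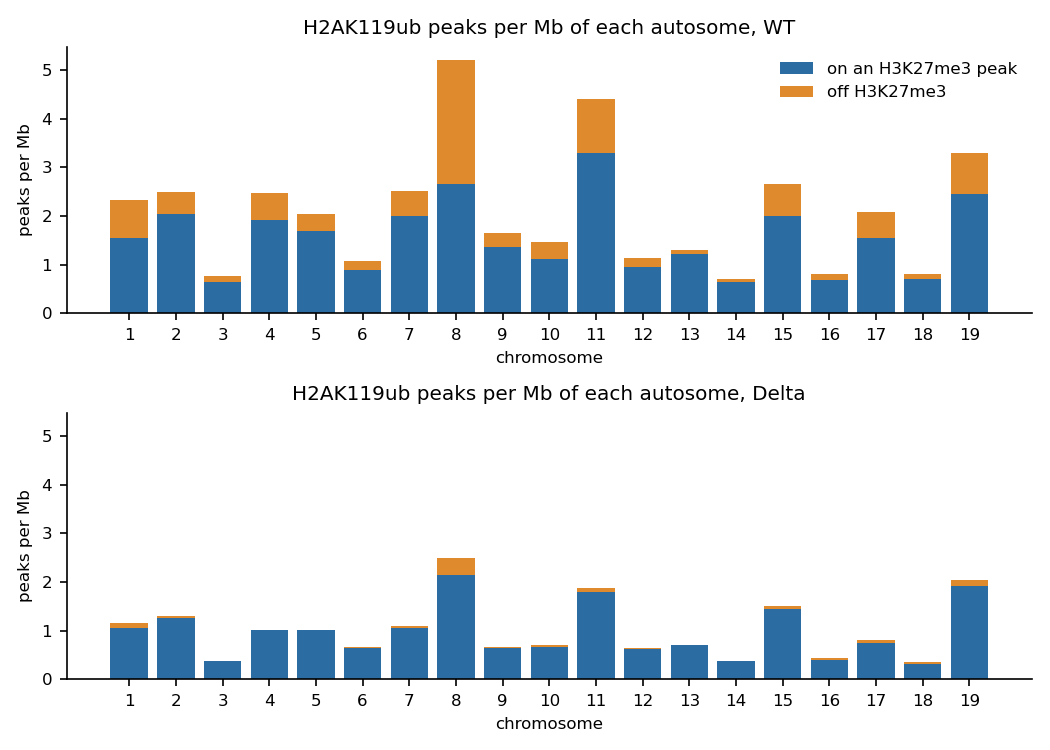
H2AK119ub peaks per Mb of sequence (vertical axis) on each of the 19 autosomes (horizontal axis), in WT (upper panel) and Delta (lower panel), split into peaks on an H3K27me3 peak of the same genotype (blue) and off it (orange); each bar is 1 library. Chromosome 8 has the tallest bar in both panels, at 5.22 in WT and 2.48 in Delta, and in WT its orange part, 2.56 per Mb, is the largest of any chromosome.

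The background differed on chromosome 8 as well. A background can be solved for each peak from its fold enrichment and p-value, and is used here only as a ratio, with the median over the 17 autosomes besides 1 and 8 set to 1. On chromosome 8 it was 1.42 in the WT and 1.47 in the Delta H2AK119ub list, and 1.35 to 1.62 over all 8 peak lists. Chromosome 1 gave 1.37 and 1.47, with 1.35 to 1.58 over the 8 lists, and chromosome 15 gave 1.03 and 1.00. The 17 other autosomes lay between 0.959 and 1.04 in WT and between 0.945 and 1.03 in Delta. The background of chromosome 1 was thus raised about as much as that of chromosome 8. By peaks per Mb, chromosome 1 ranked 8 of the 19 autosomes in WT and 6 in Delta. By peaks per 100 protein-coding genes it ranked 2 and 3. A whole chromosome can gain background through extra copies of it in a cultured line, and the part of this in the peak numbers was not tested. Since the background is solved from the fold, the folds are not a second observation. Peaks on chromosomes 8 and 1 had the lowest fold enrichment, with medians of 3.39 and 3.40 in WT against 3.65 to 3.72 on the other autosomes. In Delta they were 3.76 and 3.82 against 3.98 to 4.11. A limit on the fold is reached less often where folds are lower, and a count limited to high folds put chromosome 8 below chromosome 15. At a fold of at least 4, 19 WT peaks were left on chromosome 8 and 38 on chromosome 15, and 72 and 86 in Delta.

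**Figure D2:**
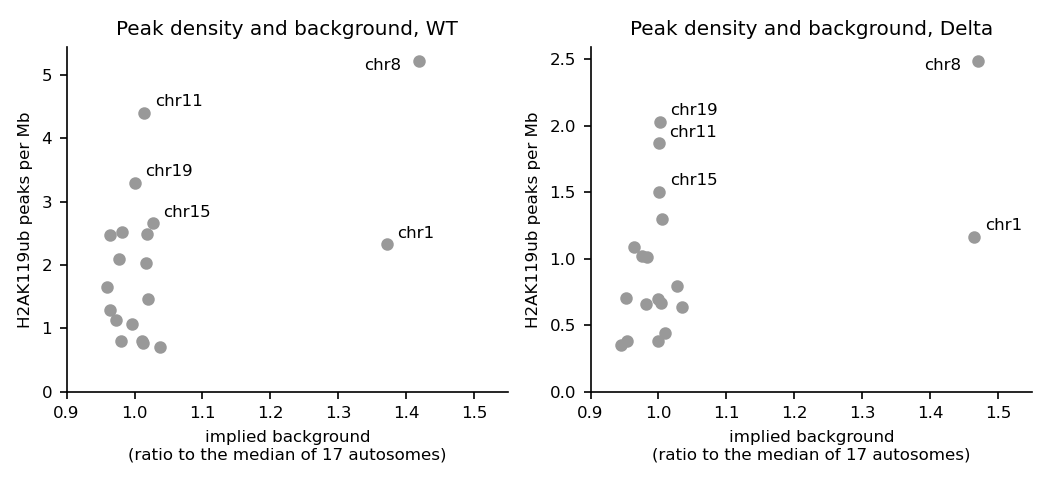
H2AK119ub peaks per Mb (vertical axis) against the implied background as a ratio to the median of 17 autosomes (horizontal axis), 1 point per autosome, in WT (left) and Delta (right); the vertical scales differ. Chromosomes 8 and 1 stand apart from the other points on the horizontal axis, at 1.42 and 1.37 in WT. On the vertical axis they lie at 5.22 and 2.33 peaks per Mb there.

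A smaller share of the H2AK119ub peaks lay on H3K27me3 on chromosome 8 than on the chromosomes compared, above all in WT. In WT, 331 of 651 peaks (50.8%, 47.0 to 54.7) overlapped an H3K27me3 peak of the same genotype by at least 1 bp, the lowest share of the 19 autosomes. The shares were 66.4% (61.9 to 70.6) on chromosome 1 and 74.9% (69.4 to 79.7) on chromosome 15. In Delta, 267 of 310 peaks (86.1%, 81.8 to 89.5) were on H3K27me3, again the lowest share, against 91.0% and 95.4%. In WT the share of chromosome 1 was the next lowest, and the 17 autosomes besides 1 and 8 had 74.0% to 94.0%. Outside the dense 4 Mb described further on, the WT share of chromosome 8 was 64.8% (60.3 to 69.2), close to that of chromosome 1. The 320 WT peaks off H3K27me3 made up 25.8% of all such WT peaks in the genome. Their density was 3.27 (2.69 to 4.00) times that of chromosome 1 and 3.84 (2.95 to 5.08) times that of chromosome 15, while peaks on H3K27me3 had ratios of 1.72 (1.46 to 2.01) and 1.33 (1.11 to 1.60). Without the dense 4 Mb described further on, which held 166 of the 320, the ratios off H3K27me3 were 1.63 (1.29 to 2.05) and 1.91 (1.43 to 2.59).

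Peaks on and off H3K27me3 differed in length, p-value, place and CpG content, but hardly in fold enrichment or GC content. In WT, those on H3K27me3 had a median length of 993 bp and those off it 644 bp, while the median folds were 3.41 and 3.37. The median −log10 p was 5.47 and 5.09, so the peaks off H3K27me3 lay nearer the calling limit. Among WT peaks with a −log10 q of at least 2, 68.4% were on H3K27me3. The median GC content was 55.1% and 55.2%, but CG dinucleotides numbered 25.6 and 15.9 per kb. The peaks on H3K27me3 lay a median of 1260 bp from a TSS and those off it 12753 bp, or 5133 bp without the dense 4 Mb, against 6970 bp on chromosome 1 and 4782 bp on chromosome 15. An H3K4me3 peak overlapped 165 of the 331 (49.8%) and 24 of the 320 (7.50%, or 12.3% without the dense 4 Mb), and an H3K27ac peak 6 and 8 of them. The median peak off H3K27me3 was 9685 bp from the nearest H3K27me3 peak, or 5363 bp without the dense 4 Mb, and 162 of the 320 were within 10 kb of one. An H3K27me3 peak of the Delta list overlapped 31 of the 320 (9.69%), close to the 9.29% of such WT peaks over the genome. On chromosome 1 it was 15 of 150 and on chromosome 15 it was 6 of 67. Of the peaks off H3K27me3, 172 of 320 had their middle outside protein-coding genes and 112 in an intron, where 118 and 152 of the 331 on H3K27me3 lay. The dense 4 Mb held 122 of these 172, and on the rest of the chromosome 50 of 154 (32.5%) lay outside genes, against 37.3% on chromosome 1 and 38.8% on chromosome 15. A further 19 and 46 were in a coding exon and 17 and 15 in a UTR.

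Seen from the H3K27me3 side, a larger share of the H3K27me3 peaks carried H2AK119ub on chromosome 8 than over the genome. In WT, 209 of its 756 H3K27me3 peaks (27.6%, 24.6 to 30.9) carried an H2AK119ub peak, against 23.8% (20.99 to 26.8) on chromosome 1, 22.5% (18.9 to 26.6) on chromosome 15 and 19.4% over the genome. In Delta it was 149 of 739 (20.2%, 17.4 to 23.2), against 14.1%, 14.4% and 11.3%. The chromosome 8 shares were 9.39% and 3.65% where at least 50% of an H3K27me3 peak had to be covered. They also differed with length. Of the chromosome 8 H3K27me3 peaks of at least 10 kb, 23 of 24 carried H2AK119ub in WT and 28 of 30 in Delta, while 25.4% and 17.1% of the shorter ones did. The difference with length was general. Over the genome 92.7% of those of at least 10 kb carried it in WT and 83.5% in Delta, against 16.7% and 8.19% of the shorter ones. The carrying peaks of chromosome 8 had a median length of 4048 bp in WT and the others 751 bp, with median H3K27me3 folds of 5.23 and 3.25. The H3K27me3 peak with the most H2AK119ub peaks in WT spanned 47263 bp over *Hand2*, a regulator of heart and limb development, and held 11 in each genotype. The next, 52138 bp over *Nfix*, a gene for a nuclear factor I protein, held 8 in WT, covering 61.3% of it.

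Far fewer of the peaks off H3K27me3 were called in Delta. On H3K27me3 the number of chromosome 8 peaks in Delta was 0.807 (0.684 to 0.951) times that in WT, and off it 0.134 (0.0954 to 0.185) times, from 320 to 43. Without the dense 4 Mb the ratio off H3K27me3 was 0.221 (0.148 to 0.322). The ratios off H3K27me3 were 0.133 (0.0792 to 0.213) on chromosome 1 and 0.104 (0.0405 to 0.227) on chromosome 15, intervals that overlap that of chromosome 8. Over all peaks the ratio was 0.476 (0.415 to 0.546) on chromosome 8, 0.500 on chromosome 1 and 0.566 on chromosome 15. At a fold of at least 4 the direction on chromosome 8 turned, as the 19 WT and 72 Delta peaks gave a ratio of 3.79. It turned on the chromosomes compared as well, with 9 WT and 56 Delta peaks on chromosome 1 and 38 and 86 on chromosome 15. A counterpart, meaning a Delta peak that overlapped by at least 1 bp, was found for 169 of the 331 WT peaks on H3K27me3 (51.1%, 45.7 to 56.4) and for 29 of the 320 off it (9.06%, 6.38 to 12.7). Over all 651 this was 30.4%, or 18.6% with at least 50% of the peak covered. In the other direction, 227 of the 310 Delta peaks (73.2%, 68.0 to 77.8) had a WT counterpart, against 65.0% on chromosome 1 and 66.9% on chromosome 15. WT peaks with a counterpart had a median length of 1509 bp and those without 619 bp. The lists were called to different limits, with a lowest −log10 p of 4.41 in the WT list and 4.75 in the Delta list, and the spike-in scaling was not part of the peak calls. With the WT list held to the Delta limit, the ratio over all peaks of chromosome 8 was 0.533 (0.463 to 0.612). The ratio off H3K27me3 was not computed at that limit. The part of read depth in these ratios was not tested.

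Along the chromosome the peaks were bunched. Between neighbouring peaks the median gap was 5800 bp in WT and 5633 bp in Delta, while the mean gaps were 190970 bp and 400810 bp. Of the 650 WT gaps, 370 were at most 10 kb (56.9%, 53.1 to 60.7), and of the 309 Delta gaps, 168 were (54.4%, 48.8 to 59.8). On chromosome 1 the shares were 44.9% (40.4 to 49.6) and 45.0% (38.6 to 51.6), and on chromosome 15 they were 54.9% (48.9 to 60.8) and 52.7% (44.7 to 60.5). Chromosome 15 was thus within the interval of chromosome 8, and chromosome 1 below it in both genotypes. Where −log10 q had to reach 2, the chromosome 8 shares were 34.3% and 45.8%. No gap was under 777 bp in WT, and the peak caller joins closer regions. Gaps over 1 Mb numbered 28 in WT and took up 94.0 Mb, and 25 in Delta took up 97.2 Mb.

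**Figure D3:**
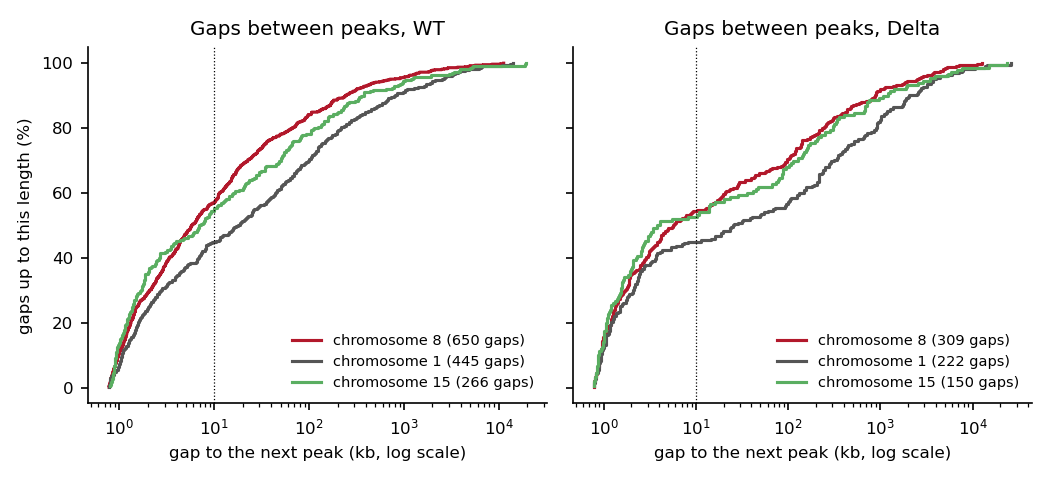
Share of gaps between neighbouring H2AK119ub peaks up to a given length (vertical axis, percent) against that length (horizontal axis, kb, log scale) for chromosomes 8 (red), 1 (grey) and 15 (green), in WT (left) and Delta (right); the dotted line marks 10 kb. At 10 kb the curves stand at 56.9%, 44.9% and 54.9% in WT and at 54.4%, 45.0% and 52.7% in Delta.

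The longest gap in WT ran over 11.3 Mb, chr8:48498029-59791707, and ended at the *Hand2* domain. It held 29 protein-coding genes, 17 H3K27me3 peaks and 18 H3K4me3 peaks, and the Delta list had no H2AK119ub peak in it either. The next WT gaps, of 10.5 Mb and 8.47 Mb, held 54 and 13 genes and 2 and 1 Delta peaks. In Delta the longest gap was 12.6 Mb, chr8:59827545-72398772, beginning at *Hand2*, where WT had 4 peaks. The GC content of the 3 longest WT gaps was 38.3% to 39.5%, below the 42.4% of the whole chromosome, and they held 10 to 35 H3K4me3 peaks each.

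The opposite case was a handful of dense stretches. Of the 132 bins of 1 Mb on chromosome 8, 61 held a WT peak, 51 a Delta peak and 48 both. The 10 densest bins held 440 of the 651 WT peaks, or 67.6%, against 48.9% on chromosome 1 and 77.2% on chromosome 15. Chromosome 1 has 198 such bins and chromosome 15 has 104, so 10 bins are an unlike part of each chromosome and the shares are not directly comparable. The densest groups on chromosome 15 and on chromosome 8 were of different kinds. On chromosome 15 the largest WT group, peaks no more than 10 kb apart, was 42 peaks over the *Hoxc* genes, and 42 of 42 were on H3K27me3. On chromosome 8 the largest was 30 peaks in 150 kb, chr8:74104807-74255296, from *Slc27a1* through *Unc13a*, *Jak3*, *Insl3* and *B3gnt3* to *Fcho1*, of which 14 were on H3K27me3. *Unc13a*, which serves transmitter release at synapses, had 9 WT and 9 Delta peaks, covering 33.8% of the gene in WT and 11.4% in Delta. In Delta this group held 24 peaks, with a covered length of 22.1 kb against 51.0 kb in WT.

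The largest Delta groups, each of 15 peaks, lay at *Nfix*, *Lyl1* and *Dand5*. *Nfix* held more H2AK119ub peaks than any other protein-coding gene model of up to 2.4 Mb in the genome in WT, 18, and 24 in Delta. They covered 65.7% of its 100469 bp in WT and 46.4% in Delta. The longest WT peak of the chromosome lay here, 18052 bp, chr8:87295089-87313140, so the higher number in Delta came with shorter peaks and less covered length. The 1 Mb bin that holds *Nfix* was the densest in Delta with 43 peaks, where WT had 42, and 39 and 29 of them were on H3K27me3.

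The 4 neighbouring bins from chr8:122000001-126000000 stood apart. They were the longest run of bins with at least 30 WT peaks on chromosome 8, a limit chosen after the peak numbers had been seen. They held 213 WT and 48 Delta peaks, a ratio of 0.225, against 438 and 262 on the rest of the chromosome, a ratio of 0.598. Since the bins were chosen for a high WT number with no limit on Delta, the choice itself favours a low ratio, and these values are a description. Of the 213 WT peaks, 166 were off H3K27me3, so these 4 Mb held more of such peaks than the rest of the chromosome with 154. In Delta, 9 of the 48 were off it. Peaks on H3K27me3 numbered 47 in WT and 39 in Delta here. In order of position the bins held 57, 68, 54 and 34 peaks in WT and 5, 20, 15 and 8 in Delta. In windows of the same 4 Mb on the other chromosomes the highest numbers were 89 WT peaks on chromosome 1, 136 on chromosome 11, the most of any, and 83 on chromosome 15.

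**Figure D4:**
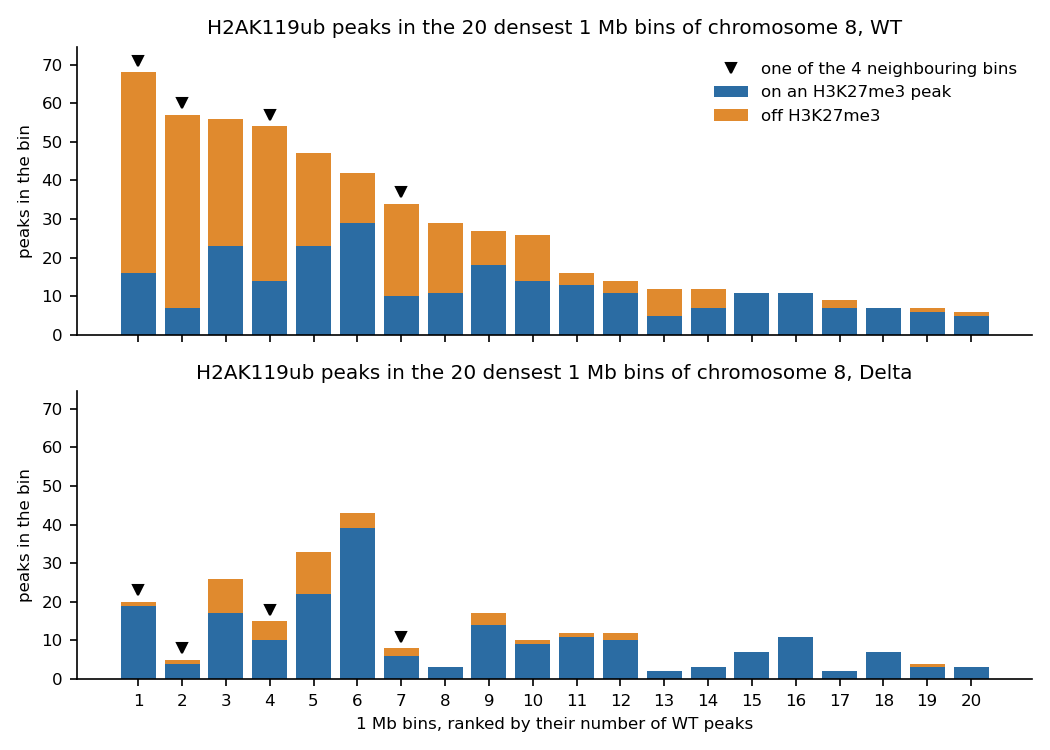
Number of H2AK119ub peaks (vertical axis) in the 20 densest 1 Mb bins of chromosome 8, ranked by their WT number (horizontal axis), in WT (upper panel) and Delta (lower panel), on an H3K27me3 peak (blue) or off it (orange). Triangles mark the 4 neighbouring bins, which hold 213 peaks in WT, mostly orange, and 48 in Delta, mostly blue, while the bin of rank 6, with *Nfix*, holds 42 and 43.

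Peak numbers and covered lengths of the other marks differed less between genotypes over these 4 Mb. H3K27me3 peaks numbered 81 in WT and 88 in Delta and covered 189 kb and 223 kb. H3K27ac peaks numbered 40 and 54 and covered 36.3 kb and 35.2 kb. H3K4me3 peaks numbered 69 and 63 and covered 112 kb and 109 kb. H2AK119ub peaks covered 235 kb and 65.4 kb. The implied background of the WT H2AK119ub peaks in these bins was 0.960 times that of the rest of chromosome 8, and in Delta 1.04 times. The 4 bins were also the only ones of the chromosome with a GC content of at least 50%. The 31 bins of the other autosomes with that GC content held a median of 15 WT peaks, 53 at most, with 21 off H3K27me3 at most, whereas the 4 bins held 24 to 52 off it. Of these 31 bins, 2 were on chromosome 15, with 20 and 23 WT peaks, and chromosome 1 had none. The part of GC content in the difference between genotypes was not tested.

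Within these 4 Mb most WT peaks off H3K27me3, 122 of 166, lay between genes rather than in them, a median of 33409 bp from a TSS and 16748 bp from the nearest H3K27me3 peak. A gene model, *Gm20388*, spans 4.43 Mb of this region and was left out when peaks were placed in genes. The intervals between genes named next were those of the 4 Mb with the most WT peaks. This choice too favours low Delta numbers, and the values are a description. The interval between *Fam92b* and *Gse1*, 311 kb long, held 40 WT and 4 Delta peaks. Of the 40, 37 were off H3K27me3, while H3K27me3 peaks there numbered 3 in WT and 14 in Delta. The interval from *Foxc2* to *1700018B08Rik* held 25 WT and 4 Delta peaks, that between *Irf8* and *Foxf1a* 22 and 3, that between *Banp* and *Gm22* 19 and 4, and that between *Cbfa2t3* and *Acsf3* 10 and 0. In the other 4 intervals, in the same order, H3K27me3 peaks numbered 9, 7, 2 and 0 in WT and 12, 6, 2 and 0 in Delta. H3K27ac peaks numbered 7 in WT and 4 in Delta between *Fam92b* and *Gse1*, and 2, 0, 1 and 1 in WT and 3, 8, 0 and 0 in Delta in the others. *Irf8* is a regulator of myeloid cells, *Gse1* a component of a corepressor complex, and *Cbfa2t3* encodes ETO2, a corepressor found in SCL complexes. Of the 5 WT peaks of highest fold on chromosome 8, 3 lay in these bins, between genes and off H3K27me3, at folds of 4.46, 4.41 and 4.37. None of the 5 had a Delta counterpart.

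At start sites, H2AK119ub peaks within 2500 bp marked 204 of the 1082 protein-coding genes of chromosome 8 in WT (18.9%, 16.6 to 21.3) and 136 in Delta (12.6%, 10.7 to 14.7), or 112 and 64 at a −log10 q of at least 2. Over all 22359 genes of the genome the shares were 9.21% in WT and 5.0% in Delta. Chromosome 1 had 13.4% and 8.32%, and chromosome 15 had 11.8% and 8.41%. On chromosome 8, 118 genes had a peak in both genotypes, 86 in WT without one in Delta and 18 in Delta without one in WT. For the genome these last 2 shares were 5.08% and 0.863%, and on chromosome 8 they were 7.95% and 1.66%. Genes with the mark in both genotypes had H3K27me3 at the TSS in 94.1% of cases and H3K4me3 in 89.8% in WT. Genes with it in WT without Delta had these marks in 77.9% and 79.1%, and H3K27ac in 19.8% against 10.2%. Of the 860 genes without it, 34.9% had H3K27me3 and 30.7% H3K27ac in WT. Over all genes of the genome the WT share with H3K27ac was 19.9%, and that over chromosome 8 alone is not given here. By position, the first 12 of the 18 genes with it in Delta without WT were *BC068157*, *Arhgef10*, *Dusp26*, *Nrg1*, *Slc7a2*, *Snx25*, *4933411K20Rik*, *Slc25a42*, *Rnf150*, *Rln3*, *4933436C20Rik* and *Slc6a2*. Some of these share a start region with a neighbour, as *Snx25* and *4933411K20Rik* do. H3K27me3 was at the TSS of 16 of the 18 in each genotype.

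The developmental transcription factors included several of the best-known Polycomb targets. Of the 16 on the chromosome in the annotation used, 9 had an H2AK119ub peak at the TSS in both genotypes and 2 in WT without Delta. Over all protein-coding genes of chromosome 8 these shares were 10.9% and 7.95%. H3K27me3 was at 14 of the 16 in WT and at 13 in Delta. Over all genes of the genome the shares were 34.8% and 32.7%, and those over chromosome 8 alone are not given here. *Hand2* had peaks over 2823 bp within 2500 bp of its TSS in WT and 1986 bp in Delta. *Irx3* had 3787 bp and 2510 bp, *Irx5* 1331 bp and 1973 bp, and *Irx6* 2792 bp and 1005 bp, so the lengths of the Iroquois genes did not all differ in the same direction. *Foxf1a*, needed in lateral mesoderm, had 3659 bp and 1992 bp, and *Foxc2*, a regulator of paraxial mesoderm and vessels, 4222 bp and 4161 bp. *Pou4f2*, a regulator of retinal ganglion cells, had 2543 bp and 2926 bp. The 2 in WT without Delta were *Sall1*, with 1662 bp, and *Tox3*, with 195 bp at the first of the printed sites. Both had an H3K27me3 peak in Delta, over 3009 bp at *Sall1* and 5001 bp, the whole window, at *Tox3*.

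Among blood-linked and corepressor genes, 8 of 13 had H2AK119ub at the TSS in both genotypes and 5 in neither. The share with it in both was 10.9% over all protein-coding genes of chromosome 8 and 4.14% over the genome. *Cbfa2t3* had peaks over 3926 bp in WT and 1646 bp in Delta, while the H3K27me3 peaks in the same window covered 2922 bp and 5623 bp and the H3K4me3 peaks 4641 bp and 1528 bp. *Gse1* went the same way, with 2962 bp and 1613 bp of H2AK119ub and 2955 bp and 4879 bp of H3K27me3. At *Klf1*, a regulator of red cell genes, H2AK119ub covered 1099 bp and 673 bp and H3K27me3 473 bp and 3130 bp. *Lyl1*, a relative of *Scl*, differed in the other direction, with 2144 bp of H2AK119ub in WT and 3028 bp in Delta, where H3K4me3 covered 2906 bp and 553 bp and its H3K27ac of 887 bp had no Delta peak. *Irf8* had 3414 bp and 3986 bp of H2AK119ub. *Zfpm1*, which encodes the GATA partner FOG1, had no H2AK119ub at its TSS but 6 WT and 3 Delta peaks in its body. *Klf2* had 1816 bp and 1044 bp of H2AK119ub and 2529 bp and 3392 bp of H3K27me3, and *Junb* 849 bp and 604 bp, and 675 bp and 900 bp. The 5 of the 8 genes with a shorter length under H2AK119ub in Delta, *Cbfa2t3*, *Gse1*, *Klf1*, *Klf2* and *Junb*, thus had a longer one under H3K27me3. Of the 3 with a longer H2AK119ub length in Delta, H3K27me3 was longer there at *Lyl1*, equal at *Nfix* and shorter at *Irf8*. How often the lengths under these marks differed in opposite directions over all genes with H2AK119ub is not given here. The list was chosen with earlier results of these data known.

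**Figure D5:**
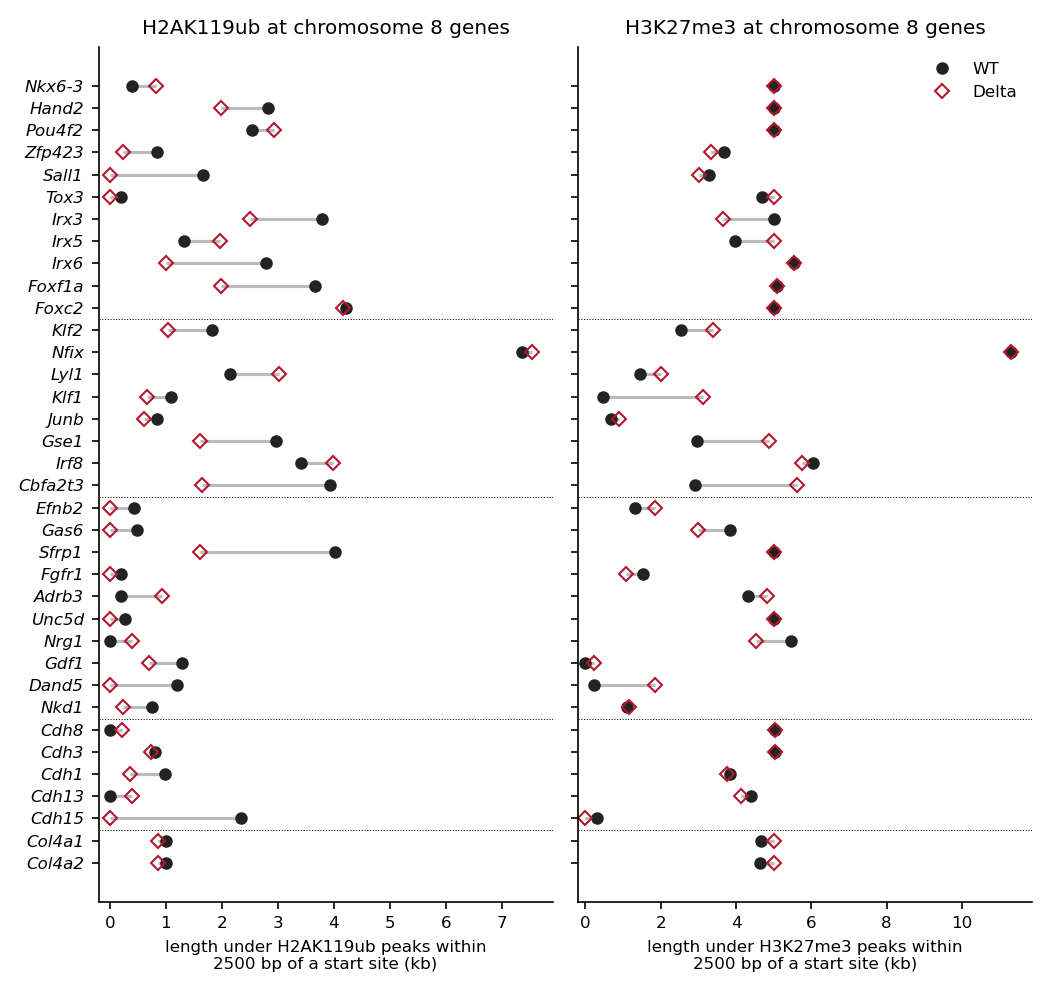
Length under H2AK119ub peaks (left) and under H3K27me3 peaks (right), in kb within 2500 bp of the start sites, for the listed chromosome 8 genes with an H2AK119ub peak there in at least 1 genotype; filled circles are WT and open diamonds Delta, 1 library each. Dotted lines part, from the top, developmental transcription factors, blood-linked and corepressor genes, signalling genes, cadherins and collagens, and genes with several start sites, such as *Nfix*, have wider windows. *Cbfa2t3* lies at 3.93 kb in WT and 1.65 kb in Delta on the left, while on the right its longer length is in Delta.

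Of 20 signalling genes, 9 had H2AK119ub at the TSS in WT and 5 in Delta, with 4 shared. Over all protein-coding genes of chromosome 8 the shares were 18.9% in WT and 12.6% in Delta. *Sfrp1*, an inhibitor of Wnt signals, had 4018 bp and 1604 bp under an H3K27me3 peak that filled the window in both genotypes. Those in WT without Delta were *Efnb2*, *Gas6*, *Fgfr1*, *Unc5d* and *Dand5*, with 205 to 1192 bp, and the gene in Delta without WT was *Nrg1*, with 396 bp. Of 8 cadherins, which join cells to each other, *Cdh1* and *Cdh3* had the mark in both genotypes, *Cdh15* in WT, and *Cdh8* and *Cdh13* in Delta. *Cdh5*, the endothelial cadherin, had no H2AK119ub or H3K27me3 peak within 2500 bp of its TSS in either. *Col4a1* and *Col4a2*, basement membrane collagens that share a start region, had 1006 bp and 859 bp. The mark was found at 0 of 36 defensins, 0 of 20 carboxylesterases and 0 of 18 widely expressed genes in both genotypes. The widely expressed genes had H3K4me3 in 18 of 18 and, over short lengths, H3K27me3 in 13 of 18 in WT, without an H2AK119ub peak. The defensins and carboxylesterases had H3K27me3 at 0 of 36 and 1 of 20 in WT.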

How the data were processed

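Sorted day 4 EB cells of 2 genotypes gave 8 ChIP libraries with a spike-in, and 2 input libraries that were not analysed here. Per the study's methods, the authors mapped reads to mm9 with Bowtie and called broad peaks per library with MACS2 2.0.10 against the input of the same genotype. Tools are named as in the submitters' processing notes. The deposited lists give a position, a score, a fold enrichment (a ratio to the local background) and p- and q-values, each as −log10. The score was not used. Spike-in scaling was not part of the peak calls, and the read totals that the study gives for each library were not used here.

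Groups were taken from the sample titles. Members and gene lists were chosen with earlier results of these data known. Genes (22359 protein-coding) came from GENCODE M1 and sequence from NCBIM37, the mm9 build, and coordinates are 1-based. Peaks overlapped at 1 bp or more, and a TSS had a peak within 2500 bp. Gene models over 2.4 Mb were left out when peaks were placed. Densities used sequence without N. Intervals are 95% Wilson intervals for shares and exact conditional intervals for ratios of counts. The implied background was solved from the fold and p-value of each peak, with the pseudocount of 1 in MACS2. Named peaks were the 5 of highest fold and the 5 longest of each list, and of bins and gaps the densest and longest 3, of which those that bear on a result are given. Named intervals between genes were those of the dense 4 Mb with the most WT peaks. In 6 checks with bedtools 2.31.1 the numbers of overlapping peaks were equal, and the code was tested on simulated data. Alternatives were joining peaks up to 3000 bp apart, 50% cover, a TSS distance of 1000 bp and densities per gene, stricter limits on the fold (4) and the −log10 q (2), and the WT list held to the lowest −log10 p of the Delta list. Python 3.11.15, numpy 2.4.6, pandas 2.3.3 and scipy 1.17.1 were used.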

Additional observations from a re-analysis of the deposited data

How the results depend on the processing

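No paired analysis was possible because each mark and genotype had 1 library. Of 52 alternative values for 18 results, 21 stayed within the counting interval of the value above (or, for gene counts, within 1.5 times it), 28 moved and 3 reversed. Leaving out the dense 4 Mb of chromosome 8 was chosen after the data had been seen.

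At a fold of at least 4, the density ratio to chromosome 15 was 0.402 in WT and 0.674 in Delta, the Delta over WT ratio 3.79 (all reversed), and the WT ratio to chromosome 1 3.24. Per gene, the ratio to chromosome 1 was 1.67 in WT and 1.59 in Delta. Without the dense 4 Mb, the WT ratios were 1.56 to chromosome 1 and 1.36 to chromosome 15, Delta over WT 0.598, the WT share on H3K27me3 64.8% and the WT counterpart share 38.1%. For peaks off H3K27me3 the WT ratios were then 1.63 and 1.91 and Delta over WT 0.221.

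At a −log10 q of at least 2, Delta over WT was 0.612. The share on H3K27me3 was 68.4% in WT and 95.2% in Delta, the Delta counterpart share 59.3%, and H3K27me3 peaks carrying H2AK119ub 16.1% in WT and 11.1% in Delta. Gaps of at most 10 kb were 34.3% and 45.8%, and genes marked at the TSS 112 and 64. With 50% cover, the WT share on H3K27me3 was 45.9%, counterparts were 18.6% in WT and 56.8% in Delta, and carrying H3K27me3 peaks 9.39% and 3.65%. With peaks up to 3000 bp apart joined, 31.0% and 23.8% of gaps were at most 10 kb, as the alternative removes short gaps. The causes of the other moves were not tested. The peak lists carry no read depth, and no comparison of peak numbers between genotypes was adjusted for it.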
